A study of Mus musculus with 18 samples.

Results

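Class I histone deacetylases and the scaffold proteins that carry them were followed at the RNA level in mouse erythroleukemic cells. The 10 genes, Hdac1, Hdac2, Hdac3, Hdac8, Sin3a, Sin3b, Mbd2, Mbd3, Rcor1 and Ncor1, were picked by symbol, and all 10 were found among the 25628 genes listed for the first experiment and the 26903 listed for the second. All 10 passed the filter on low counts in both experiments.

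The cells were TgSpi1 erythroleukemic cells, leukemic erythroid cells of mouse bone marrow that overexpress the transcription factor SPI1 (PU.1), grown with erythropoietin (EPO) and carrying a doxycycline-inducible short hairpin RNA (shRNA) against Spi1. Experiment 1 set cells given doxycycline for 48 h (Exp1_Dox) against cells without it (Exp1_NoDox). Experiment 2 crossed doxycycline for 48 h with entinostat, labelled as an HDAC1/3 inhibitor, at 3 µM for 6 h, or its vehicle DMSO. Its 4 groups are named Dox_Entinostat, NoDox_Entinostat, Dox_DMSO and NoDox_DMSO. Each of the 6 groups held 3 libraries, labelled as biological replicates. The labels name 1 line of cells, and no group here carries a control hairpin, so the effect of doxycycline itself and of the hairpin cannot be told apart.

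Class I deacetylases remove acetyl groups from histone tails and rarely work alone. HDAC1 and HDAC2 are close homologs that sit in the SIN3, NuRD and CoREST complexes. HDAC3 works with the NCoR and SMRT corepressors, and HDAC8 is not a standing member of any of these. SIN3A and SIN3B are the scaffolds of the SIN3 complexes, MBD2 and MBD3 are mutually exclusive subunits of NuRD, RCOR1 links HDAC1 and HDAC2 to the demethylase KDM1A, and NCOR1 activates HDAC3. In red cell precursors, CoREST is recruited by GFI1B, and HDAC-containing complexes take part in the silencing of progenitor and fetal globin genes.

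Total counts per library, in units of 1 M counts, were 82.7 to 114 in experiment 1 and 43.1 to 48.9 in experiment 2. Spi1, the target of the hairpin, had 125 to 133 CPM (counts scaled to the library size, with TMM factors) in Exp1_Dox, against 379 to 459 CPM in Exp1_NoDox. It had 98.5 to 162 CPM in Dox_Entinostat against 221 to 482 CPM in NoDox_Entinostat, and 59.5 to 126 CPM in Dox_DMSO against 199.6 to 259 CPM in NoDox_DMSO. Of 13 erythroid markers, 12 reached 1 CPM in every group, while markers of T, B and stromal cells and of neutrophil granules summed to at most 2.91 CPM, those of macrophages to 0.985 to 11.3 CPM and those of megakaryocytes to 26.5 to 127 CPM. The erythroid list summed to 5979 to 7295 CPM in Exp1_Dox against 3983 to 4880 CPM in Exp1_NoDox. It summed to 5059 to 6139 CPM in Dox_DMSO against 3777 to 3932 CPM in NoDox_DMSO. In entinostat it summed to 6054 to 8060 CPM in Dox_Entinostat against 3817 to 4262 CPM in NoDox_Entinostat. The cells with and without doxycycline thus also differed in these markers in both experiments. The part of these markers in the values below was not tested. In bulk RNA, fewer cells that express a gene and less RNA per cell cannot be told apart.

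Several measures set libraries of the same group apart. For each library, the median log2 deviation of genes with transcripts over 6 kb, minus that of genes under 2 kb, was taken as a balance of long over short transcripts. The first Dox_DMSO library had a balance of -0.57, while the other 2 had 0.64 and 0.69. The first NoDox_Entinostat library had -0.68, against 0.64 and 0.58 in the other 2. Values were from -0.69 to -0.31 in Dox_Entinostat, from -0.12 to 0.32 in NoDox_DMSO, and from -0.34 to 0.49 over the 6 libraries of experiment 1. Both libraries also had a higher share of mitochondrial counts, 1.48% in the first Dox_DMSO library against 0.960% and 0.976% in the other 2, and 1.64% in the first NoDox_Entinostat library against 1.02% and 0.929%. The 10 most abundant genes held 6.23% of the counts in the first Dox_DMSO library against 4.68% and 4.59% in the other 2, and 7.29% in the first NoDox_Entinostat library against 5.04% and 4.90%. The Dox_Entinostat libraries had mitochondrial shares of 1.43 to 1.76% and top 10 shares of 6.98 to 8.38%. The part of these measures in the values below was not tested. Results that rest on the 2 libraries that stand apart are given below with and without them.

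Levels between genes were compared per kb of the longest annotated transcript, in CPM per kb, as means over 3 libraries. In NoDox_DMSO the order began with Hdac1 at 166 ± 0.276 CPM per kb (SD, n = 3), followed by Mbd2 at 90.7 ± 2.94 and Mbd3 at 81.7 ± 2.48. Hdac2 stood at 40.3 ± 2.78 CPM per kb, Hdac3 at 31.1 ± 0.786 and Sin3b at 22.6 ± 0.375. The lowest 4 were Sin3a at 19.0 ± 2.40, Rcor1 at 18.2 ± 2.22, Ncor1 at 14.0 ± 2.16 and Hdac8 at 10.3 ± 0.684 CPM per kb. Only Sin3a and Rcor1, neighbours in this order, overlapped in their libraries; every other neighbour pair was separated in this group. In Dox_Entinostat the order was different below Hdac1: Mbd3 had 24.6 ± 3.73 CPM per kb and took place 5 of 10, and Sin3a had 5.51 ± 0.344 and took place 9, above Hdac8 at 3.85 ± 0.567. The plot of levels by library shows all 10 genes across the groups.

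**Figure D1:**
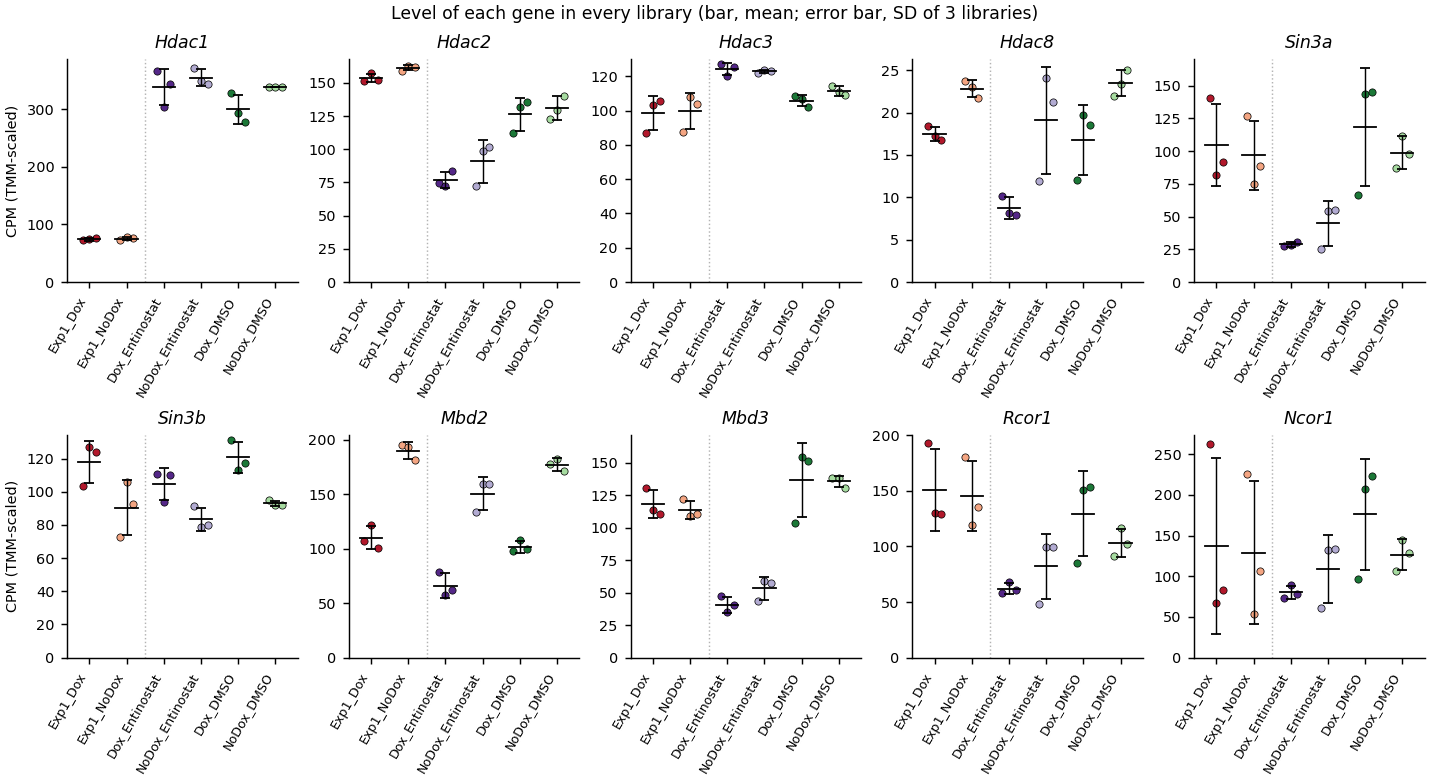
CPM (TMM-scaled, vertical axis from 0) of each of the 10 genes in every library of the 6 groups; points are libraries, bars are means and error bars the SD of 3 libraries, with the 2 experiments on either side of the dotted line. Mbd2 was lower in every doxycycline library than in the libraries of its own comparison without doxycycline, and Mbd3 and Sin3a were lower in every entinostat library than in the DMSO libraries with the same doxycycline treatment.

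The level of Hdac1 depends on how its reads were told apart from those of a copy. Hdac1 (mm10 chr4:129516104-129542713, minus strand) has a processed pseudogene, Gm10093 (chr17:78491582-78493025, plus strand), also listed under the synonym Hdac1-ps. The copy aligned over 1444 bases to the 2038-base Hdac1 transcript with 9 differing bases (99.4% identical) and no gap, all 9 within the coding sequence, and the longest identical run was 450 bases. Of the 1989 runs of 50 bases in the Hdac1 transcript, 1121 also occur in Gm10093. The stretch of 60 bases that separates the 2 best, from base 507 to 566 of the Hdac1 transcript, is shown because, within the part of Hdac1 that the copy covers, a read needs a differing base to be assigned to either; capitals mark the 5 bases that differ.

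Hdac1: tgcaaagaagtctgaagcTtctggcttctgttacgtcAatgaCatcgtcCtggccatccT
Gm10093: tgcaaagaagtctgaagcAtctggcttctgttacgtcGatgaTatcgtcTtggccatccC

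Counted from the 5′ end of the Hdac1 transcript, with the Hdac1 base first, these differences are T525A, A544G, C549T, C556T and T566C. In experiment 1 Gm10093 held 71.2 to 72.6% of the counts of the pair, and in experiment 2 it held 7.67 to 8.86%. Hdac1 alone averaged 74.3 ± 2.39 CPM in Exp1_Dox and 75.4 ± 2.34 CPM in Exp1_NoDox, but 299.5 ± 25.2 CPM in Dox_DMSO and 338 ± 0.563 CPM in NoDox_DMSO (SD, n = 3 each). Summed over the pair, the means were 261 ± 9.13 CPM in Exp1_Dox and 271 ± 10.8 CPM in Exp1_NoDox, against 326 ± 28.1 CPM in Dox_DMSO and 369 ± 1.41 CPM in NoDox_DMSO. The counts of the 2 experiments come in separate tables. How reads with several matches were handled was not given in the sources used here, so the Hdac1 level cannot be compared across the experiments. Adding the copy's counts to Hdac1 left Hdac1 without a call in all 6 comparisons.

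**Figure D2:**
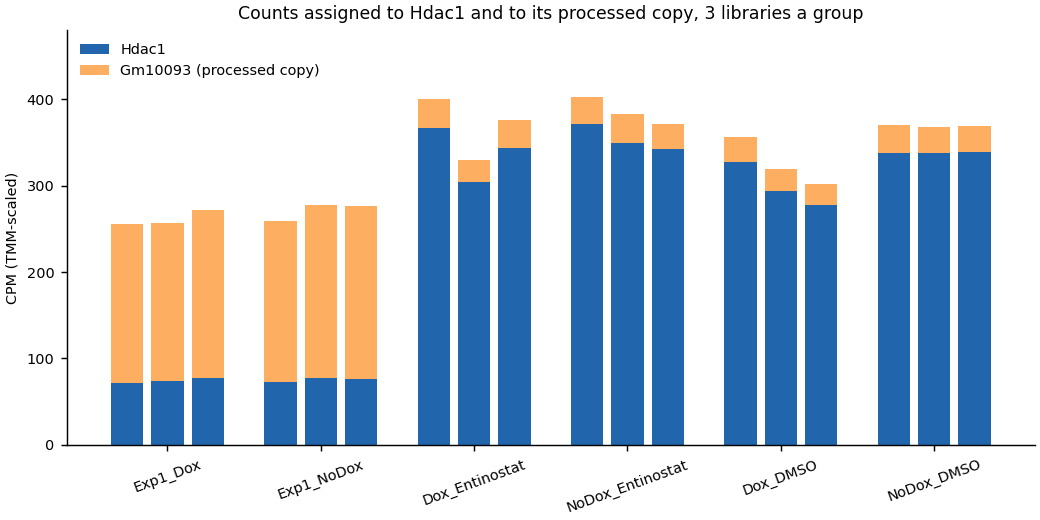
Stacked CPM (TMM-scaled) of Hdac1 and of its processed copy Gm10093 in each of the 18 libraries, 3 bars a group. The copy takes 71.2 to 72.6% of the stack in experiment 1 and 7.67 to 8.86% in experiment 2.

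Doxycycline, which lowers Spi1, went with less Mbd2 in every setting in which it was given. MBD2 is the NuRD subunit that binds methylated CpG sites. Mbd2 (mm10 chr18:70568189-70626131, plus strand) had 107, 122 and 101 CPM in Exp1_Dox, against 195, 194 and 181 CPM in Exp1_NoDox. It had 97.4, 108 and 99.9 CPM in Dox_DMSO, against 178, 182 and 171 CPM in NoDox_DMSO. With entinostat present it had 78.8, 57.0 and 62.2 CPM in Dox_Entinostat, against 133, 159 and 159 CPM in NoDox_Entinostat. The groups did not overlap in any of the 3 comparisons. The log2 fold change was -0.79 ± 0.09 in experiment 1 (SE; edgeR quasi-likelihood test, Benjamini-Hochberg adjusted p = 0.00355), -0.80 ± 0.16 in DMSO (adjusted p = 0.00578) and -1.19 ± 0.16 in entinostat (adjusted p = 0.000611). Leaving out any 1 library kept the call in all 3.

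Of the 10 genes, 2 were called lower and 0 higher with doxycycline in experiment 1, where 13.6% of all 13811 genes tested were called, 8.36% lower and 5.26% higher. In DMSO 1 was called, lower, against a background of 9.31% of 15051 genes, 5.53% lower and 3.77% higher. In entinostat 2 were called, both lower, against 24.0% of all genes, 15.1% lower and 8.96% higher. The median log2 fold change of the 10 genes was 0.02, -0.02 and -0.40 in these 3 comparisons, beside 0.02, 0.05 and -0.08 over all genes tested. By non-overlap of the libraries, 3 of the 10 were lower in experiment 1, where the groups of 32.1% of all genes did not overlap. In DMSO 4 were lower and 1 higher, against 25.8%, and in entinostat 2 were lower and 1 higher, against 37.6%.

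The other called gene was Hdac8, an X-linked class I deacetylase (mm10 chrX:102284639-102505359, minus strand) known for deacetylating the cohesin subunit SMC3. Hdac8 had 18.4, 17.3 and 16.8 CPM in Exp1_Dox, against 23.7, 23.0 and 21.7 CPM in Exp1_NoDox, with no overlap. Its log2 fold change was -0.38 ± 0.08 (edgeR adjusted p = 0.0295). Leaving out 1 library kept this call only without Exp1_Dox replicate 1, with edgeR adjusted p from 0.0474 to 0.124 over the 6 libraries. In entinostat Hdac8 had 10.2, 8.12 and 7.86 CPM in Dox_Entinostat, against 11.95, 24.1 and 21.2 CPM in NoDox_Entinostat, a log2 fold change of -1.13 ± 0.26 (edgeR adjusted p = 0.0107). Here too the groups did not overlap, and the call was lost without NoDox_Entinostat replicate 2 or Dox_Entinostat replicate 3, with edgeR adjusted p of 0.0556 and 0.0558. In DMSO the difference was not called, at -0.48 ± 0.25 (edgeR adjusted p = 0.322).

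Sin3b, the smaller SIN3 scaffold (mm10 chr8:72723285-72758201, plus strand), had 104, 127 and 124 CPM in Exp1_Dox, against 72.7, 106 and 92.5 CPM in Exp1_NoDox. It had 132, 113 and 118 CPM in Dox_DMSO against 94.8, 92.0 and 92.3 CPM in NoDox_DMSO, and 111, 93.8 and 110.3 CPM in Dox_Entinostat against 91.3, 78.6 and 80.2 CPM in NoDox_Entinostat. The groups overlapped in experiment 1 and were separated in both comparisons of experiment 2. Its log2 fold changes of 0.39 ± 0.16, 0.38 ± 0.14 and 0.33 ± 0.14 were not called (edgeR adjusted p = 0.177, 0.139 and 0.0975). DESeq2 called Sin3b higher in DMSO and in entinostat. In entinostat it was also called without NoDox_Entinostat replicate 1, at 0.40 (edgeR adjusted p = 0.0445), and with a trend over transcript length and GC content removed, at 0.75 (edgeR adjusted p = 0.0470). In a blocked fit on replicate number, which the check of pairing allows in experiment 1, Sin3b was called there at 0.40 ± 0.05 (edgeR adjusted p = 0.000134) and Sin3a at 0.11 ± 0.04 (edgeR adjusted p = 0.0344), so that 4 of the 10 genes were called, 2 higher and 2 lower, against 50.9% of all genes. Without the block, removing the trend left the value of Hdac8 there at -0.38 and ended its call (edgeR adjusted p = 0.0968).

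No other gene of the 10 was called with doxycycline. Hdac1, Hdac2 and Hdac3 had log2 fold changes between -0.25 and 0.02 over the 3 comparisons, each within 1.5 SE of 0. In experiment 1, Hdac2 had 152, 157 and 152 CPM in Exp1_Dox against 159, 163 and 162 CPM in Exp1_NoDox, groups that did not overlap although the difference, -0.07 ± 0.06, was not called (edgeR adjusted p = 0.57). Hdac1 had 278 to 327 CPM in Dox_DMSO against 338 to 339 CPM in NoDox_DMSO. Hdac3 had 102 to 108 CPM in Dox_DMSO against 109 to 115 CPM in NoDox_DMSO. These groups did not overlap either, as for 25.8% of all genes. The differences, -0.17 ± 0.16 and -0.08 ± 0.13, were not called (edgeR adjusted p = 0.633 and 0.836).

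**Figure D3:**
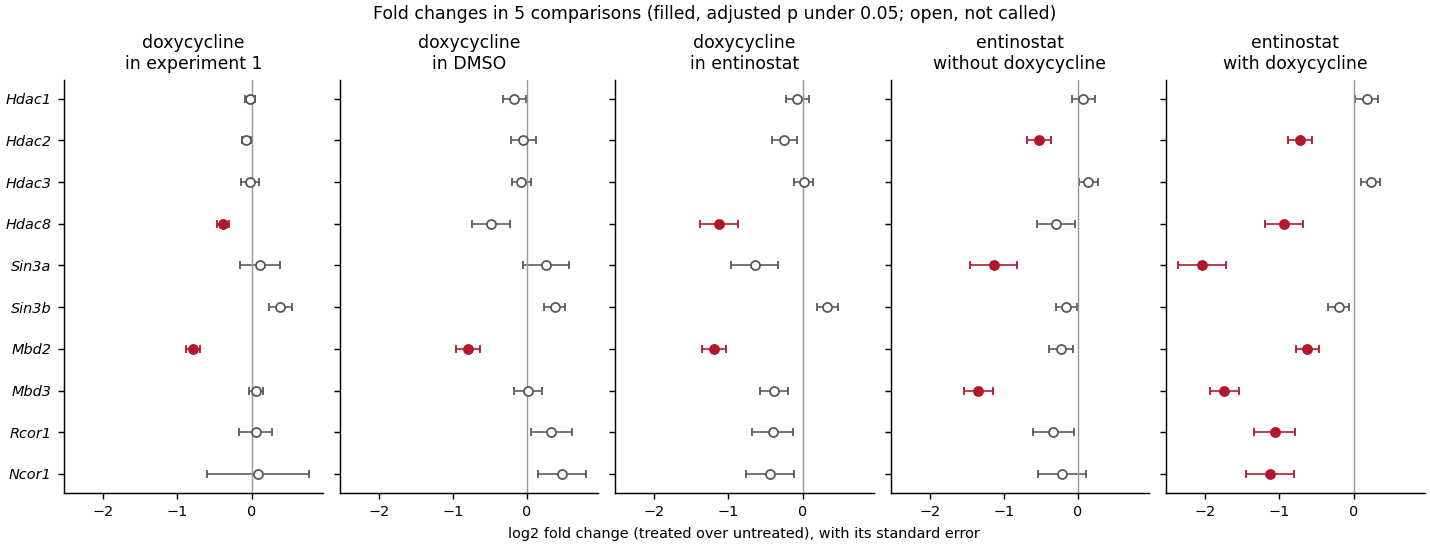
Log2 fold change (horizontal axis, treated over untreated, with its standard error from the edgeR fit) of each of the 10 genes in 5 comparisons; filled points are called at an adjusted p under 0.05. Mbd2 is called in all 3 doxycycline comparisons, and Mbd3, Sin3a and Hdac2 in both entinostat comparisons.

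Entinostat lowered Mbd3, Sin3a and Hdac2, with and without doxycycline. Mbd3 (mm10 chr10:80392539-80399550, minus strand) encodes the NuRD subunit that does not recognise methylated DNA. It had 43.3, 59.4 and 57.7 CPM in NoDox_Entinostat, against 138, 138 and 131 CPM in NoDox_DMSO, and 47.4, 35.01 and 40.3 CPM in Dox_Entinostat, against 104, 155 and 152 CPM in Dox_DMSO. No entinostat library reached the lowest DMSO library. The log2 fold changes were -1.35 ± 0.20 without doxycycline (edgeR adjusted p = 0.000129) and -1.74 ± 0.20 with it (edgeR adjusted p = 1.65e-05).

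Sin3a (mm10 chr9:57072040-57128366, plus strand), the larger SIN3 scaffold, had 25.0, 54.6 and 54.9 CPM in NoDox_Entinostat, against 86.9, 112 and 97.7 CPM in NoDox_DMSO. It had 27.3, 28.1 and 30.7 CPM in Dox_Entinostat, against 66.1, 144 and 145 CPM in Dox_DMSO. Again the groups did not overlap, and the lowest library of NoDox_Entinostat and of Dox_DMSO was the first, which stood apart in its balance of long transcripts. The log2 fold changes were -1.14 ± 0.32 (edgeR adjusted p = 0.00981) and -2.04 ± 0.33 (edgeR adjusted p = 0.000191). Without those 2 libraries they were -0.86 and -2.34, both called, where 3 of the 10 genes, all lower, and 63.9% of all genes were called without doxycycline. With library size in place of TMM, Sin3a was not called without doxycycline, at -0.87 (edgeR adjusted p = 0.0558).

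Hdac2 (mm10 chr10:36974544-37001889, plus strand) had 72.5, 98.4 and 102 CPM in NoDox_Entinostat against 122, 129.7 and 140.4 CPM in NoDox_DMSO, and 74.3, 72.0 and 83.6 CPM in Dox_Entinostat against 112, 132 and 135 CPM in Dox_DMSO. Both pairs of groups were separated. The log2 fold changes were -0.53 ± 0.17 (edgeR adjusted p = 0.0191) and -0.72 ± 0.17 (edgeR adjusted p = 0.00225). Without doxycycline the call was lost when NoDox_DMSO replicate 2, NoDox_DMSO replicate 3 or NoDox_Entinostat replicate 1 was left out, with edgeR adjusted p of 0.0507, 0.0731 and 0.0574. It was also lost with library size in place of TMM, at -0.27, and without a filter on low counts, at -0.52 (edgeR adjusted p = 0.0731).

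These were the 3 genes of the 10 called without doxycycline, all lower, in a comparison that called 47.2% of all genes, 30.3% higher and 16.9% lower (4554 and 2545 genes). With library size alone the split was 5417 higher and 1233 lower, the median over all genes moved to 0.32 from 0.07 on the log2 scale, and 1 of the 10 was called lower and 1 higher, Mbd3 and Hdac3. With doxycycline, 7 of the 10 were called, all lower, against 63.7% of all genes, 33.9% higher and 29.9% lower (5097 and 4498 genes). The 4 further genes were Mbd2 at -0.62 ± 0.16, Hdac8 at -0.94 ± 0.26, Rcor1 at -1.06 ± 0.28 and Ncor1 at -1.13 ± 0.33 (edgeR adjusted p = 0.00444, 0.00624, 0.00509 and 0.00901). Mbd2 lost this call when the 2 groups were fitted alone, at -0.50 (edgeR adjusted p = 0.0568). Without doxycycline these 4 were not called, with log2 fold changes of -0.23 ± 0.16 for Mbd2, -0.30 ± 0.25 for Hdac8, -0.33 ± 0.28 for Rcor1 and -0.22 ± 0.32 for Ncor1 (edgeR adjusted p = 0.251, 0.363, 0.353 and 0.616). Medians of the 10 were -0.27 without and -0.83 with doxycycline, beside 0.07 and 0.14 over all genes tested. The libraries of 5 genes were lower and of 2 higher without overlap when doxycycline was absent, against 60.2% of all genes, and of 8 lower and 1 higher when it was present, against 66.0%. The 3 mast cell markers listed, of 4, summed to 26.8 to 101 CPM in NoDox_Entinostat against 3.26 to 7.10 CPM in NoDox_DMSO, and to 31.5 to 66.9 CPM in Dox_Entinostat against 0.843 to 7.54 CPM in Dox_DMSO. The 4 megakaryocyte markers summed to 83.5 to 125 CPM in NoDox_Entinostat against 31.8 to 68.5 CPM in NoDox_DMSO, and to 66.6 to 127 CPM in Dox_Entinostat against 30.3 to 45.5 CPM in Dox_DMSO. The 4 macrophage markers summed to 5.46 to 11.3 CPM in NoDox_Entinostat against 2.73 to 3.08 CPM in NoDox_DMSO, and to 2.171 to 3.55 CPM in Dox_Entinostat against 1.64 to 2.46 CPM in Dox_DMSO. The part of these markers in the results was not tested.

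Hdac1 and Hdac3, the labelled targets of the drug, were not called with entinostat. Hdac3 (mm10 chr18:37935844-37955016, minus strand) had 122 to 123 CPM in NoDox_Entinostat, against 109 to 115 CPM in NoDox_DMSO, and 120.0 to 127 CPM in Dox_Entinostat against 102 to 108 CPM in Dox_DMSO. The entinostat libraries were above all DMSO libraries in both pairs, yet the log2 fold changes of 0.14 ± 0.13 and 0.23 ± 0.13 were not called (edgeR adjusted p = 0.399 and 0.126). With doxycycline Hdac3 was called higher by DESeq2, with library size alone, with a 1 CPM filter, without the 2 libraries that stood apart and after a trend over transcript length and GC content was removed. Hdac1 had log2 fold changes of 0.07 ± 0.16 and 0.18 ± 0.16 (edgeR adjusted p = 0.75 and 0.337). With doxycycline Hdac1 was called higher once that trend was removed, at 0.25 (edgeR adjusted p = 0.0482, and 0.0420 with the block as well). Sin3b had log2 fold changes of -0.16 ± 0.14 and -0.20 ± 0.14 (edgeR adjusted p = 0.39 and 0.224). The sign of the Sin3b values turned when that trend was removed, to 0.16 and 0.49, neither called, and with the block as well Sin3b was called higher with doxycycline, at 0.53 (edgeR adjusted p = 0.0134).

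The start regions of the SIN3 pair and of the other 2 genes that entinostat lowered in both comparisons are shown for context, since Sin3a was called and Sin3b was not. Windows were matched by symbol for 7 of the 10 genes in RefSeq (GRCm38.p6) and not for Hdac1, Hdac3 and Mbd2. Each window holds the 250 bases before the annotated start, on the gene's strand: Sin3a at chr9:57071790-57072039 (plus), Sin3b at chr8:72723020-72723269 (plus), Hdac2 at chr10:36974294-36974543 (plus) and Mbd3 at chr10:80399532-80399781 (minus). Sin3a has a second annotated start, whose window (chr9:57076126-57076375, plus) holds 3 GGAA and 19 CG and is not printed. Capitals mark GGAA and its reverse complement TTCC, the core recognised by ETS factors such as SPI1.

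Sin3a: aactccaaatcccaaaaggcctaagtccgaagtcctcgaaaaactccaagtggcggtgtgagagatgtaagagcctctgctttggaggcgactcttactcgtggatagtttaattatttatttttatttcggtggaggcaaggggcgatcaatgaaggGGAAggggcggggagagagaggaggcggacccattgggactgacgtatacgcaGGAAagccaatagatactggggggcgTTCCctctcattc
Sin3b: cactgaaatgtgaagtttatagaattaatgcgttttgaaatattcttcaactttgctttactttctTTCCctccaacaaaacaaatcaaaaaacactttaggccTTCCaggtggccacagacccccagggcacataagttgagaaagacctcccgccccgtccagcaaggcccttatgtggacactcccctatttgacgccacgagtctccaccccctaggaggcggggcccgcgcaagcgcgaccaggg
Hdac2: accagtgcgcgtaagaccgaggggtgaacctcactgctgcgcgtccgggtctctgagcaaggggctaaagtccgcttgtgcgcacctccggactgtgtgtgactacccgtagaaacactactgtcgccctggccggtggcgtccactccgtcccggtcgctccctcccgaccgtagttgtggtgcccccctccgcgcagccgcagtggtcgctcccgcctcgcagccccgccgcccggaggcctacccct
Mbd3: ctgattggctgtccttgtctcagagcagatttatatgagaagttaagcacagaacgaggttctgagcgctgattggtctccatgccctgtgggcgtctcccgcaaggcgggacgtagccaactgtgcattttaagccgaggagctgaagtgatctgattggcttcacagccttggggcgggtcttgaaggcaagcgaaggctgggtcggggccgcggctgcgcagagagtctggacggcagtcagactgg

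On both strands together, GGAA occurred 3 times in the printed Sin3a window, 2 times in the Sin3b window and 0 times in those of Hdac2 and Mbd3, with no overlap between matches. Among 32851 RefSeq windows of the same length, 93.4% held it at least once. The longer GAGGAA, read on both strands, was in 0 of the 9 windows of the 7 genes and in 23.3% of all windows. CG dinucleotides numbered 12 in the Sin3a window, 10 in that of Sin3b, 27 in that of Hdac2 and 14 in that of Mbd3, beside a median of 6 over all windows.

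Ratios of paired homologs within a library do not depend on scaling between libraries. Such ratios can still move with the balance of long over short transcripts. They were tested with exact permutation tests, two-sided, with labels permuted within each comparison and p adjusted over the 6 tests. The log2 ratio of Mbd2 over Mbd3 was -0.29, 0.10 and -0.14 in Exp1_Dox against 0.68, 0.83 and 0.71 in Exp1_NoDox. It was 0.74, 0.70 and 0.63 in Dox_Entinostat against 1.62, 1.42 and 1.46 in NoDox_Entinostat, and -0.10, -0.52 and -0.60 in Dox_DMSO against 0.36, 0.40 and 0.38 in NoDox_DMSO. Groups with and without doxycycline were separated in each of the 3 comparisons. The mean difference with doxycycline was -0.82 (exact permutation p = 0.00025, the smallest that 8000 arrangements allow, adjusted p = 0.0015), with differences of -0.85, -0.79 and -0.81 in experiment 1, in DMSO and in entinostat. Entinostat moved the same ratio the other way, by 1.12 without and 1.10 with doxycycline (mean 1.11; exact permutation p = 0.005, the smallest that 400 arrangements allow, adjusted p = 0.0075).

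The log2 ratio of Sin3a over Sin3b was -2.02, -1.74 and -1.85 in Dox_Entinostat against -0.99, 0.34 and 0.30 in Dox_DMSO. It was -1.87, -0.53 and -0.55 in NoDox_Entinostat against -0.13, 0.28 and 0.08 in NoDox_DMSO. Both pairs of groups were separated, and the first Dox_DMSO and NoDox_Entinostat libraries were again the lowest of their groups. The mean difference with entinostat was -1.41 (exact permutation p = 0.005, the smallest possible, adjusted p = 0.0075). Hdac1 over Hdac2 rose by 0.75 with entinostat by the same test (exact permutation p = 0.005, adjusted p = 0.0075), with differences of 0.61 without and 0.89 with doxycycline. With doxycycline, neither the Sin3a over Sin3b ratio (-0.46, exact permutation p = 0.102, adjusted p = 0.122) nor the Hdac1 over Hdac2 ratio (0.03, exact permutation p = 0.752) passed the test. Inside groups, the slopes of Sin3a and Sin3b, in log2 CPM per unit of balance, were 0.86 and -0.17 in experiment 2. In experiment 1 they were 0.96 and -0.53. Balances were -0.69 to -0.31 in Dox_Entinostat. The part of the balance in its Sin3a over Sin3b ratio cannot be told apart from the group.

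**Figure D4:**
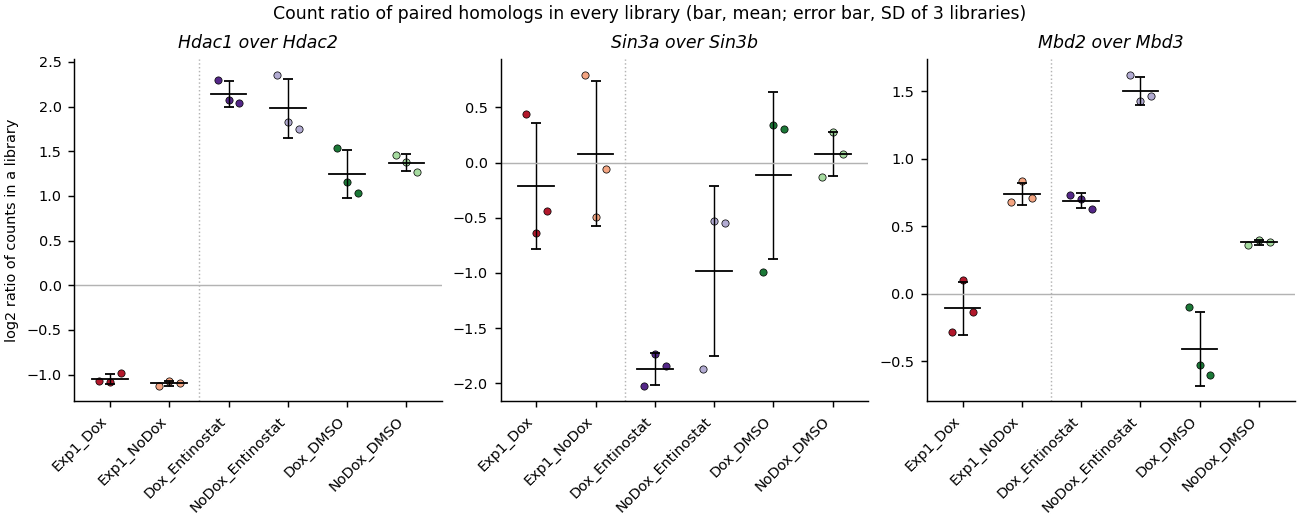
Log2 ratio of counts (vertical axis) of 3 pairs of homologs in every library; points are libraries, bars means and error bars the SD of 3 libraries. In the Mbd2 over Mbd3 panel, each group with doxycycline lies below its partner without it, and each entinostat group lies above its DMSO partner.

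Inside groups, the levels of several genes moved with the balance of long over short transcripts, among them the scaffolds with the longest transcripts. Ncor1 (mm10 chr11:62316426-62458541, minus strand; longest transcript 9037 bases) had 262, 67.0 and 82.6 CPM in Exp1_Dox and 226, 54.1 and 106 CPM in Exp1_NoDox, where the first library of each group had the highest balance, 0.43 and 0.49. The largest spread inside a group was 4.18-fold in experiment 1 and 2.30-fold in experiment 2. For Rcor1 (mm10 chr12:111039351-111115901, plus strand; 5684 bases) it was 1.51-fold and 2.06-fold, and for Sin3a (5206 bases) 1.72-fold and 2.20-fold. Shorter transcripts also moved in experiment 2, with spreads of 2.18-fold for Spi1 (2034 bases) and 2.01-fold for Hdac8 (2267 bases), against 1.21-fold and 1.10-fold in experiment 1. Mbd2 (1953 bases) had spreads of 1.21-fold in experiment 1 and 1.38-fold in experiment 2. The slopes inside groups of experiment 2, in log2 CPM per unit of balance, were 0.90 for Ncor1, 0.86 for Sin3a, 0.85 for Spi1, 0.74 for Rcor1, 0.57 for Hdac8 and 0.10 for Mbd2. The plot of level against balance shows this for 4 genes, and the part of the balance in the results on Ncor1, Rcor1 and Sin3a cannot be told apart from the groups in Dox_Entinostat, where all 3 libraries had a balance below -0.30.

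**Figure D5:**
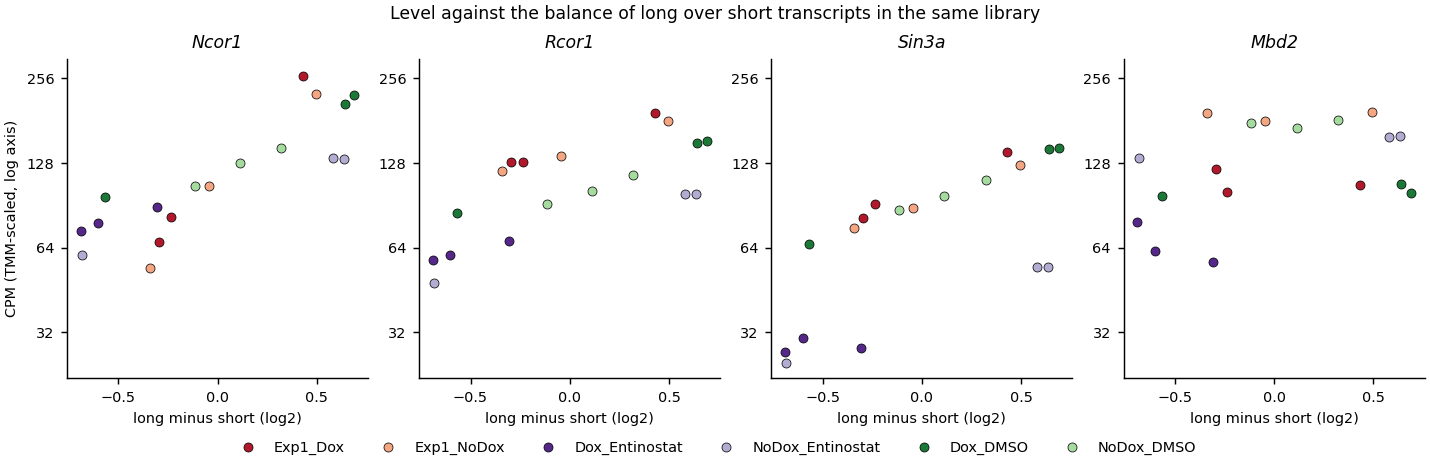
CPM (TMM-scaled, log axis) of Ncor1, Rcor1, Sin3a and Mbd2 against the balance of long over short transcripts (log2, horizontal axis) in the same library, 18 points coloured by group. Ncor1, Rcor1 and Sin3a are higher where the balance is higher inside most groups, while Mbd2 separates by doxycycline at any balance.

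A smooth trend over transcript length and GC content was removed from each library, in a fit that called 65.5% of all genes. Removing it cannot tell the balance from the groups, since the balance was low in all Dox_Entinostat libraries. For entinostat with doxycycline, the log2 fold changes were then -1.501 for Sin3a (edgeR adjusted p = 2.52e-05), -0.51 for Rcor1 (edgeR adjusted p = 0.00432) and -0.46 for Ncor1 (edgeR adjusted p = 0.00703). The values of Rcor1 and Ncor1 were then less than 1 in size, against -1.06 and -1.13 before. In Dox_Entinostat, Rcor1 had 57.9, 67.8 and 60.4 CPM against 85.3, 150.4 and 153 CPM in Dox_DMSO, and Ncor1 had 73.4, 89.1 and 78.6 CPM against 97.1, 207 and 223 CPM, with no overlap in either gene. With doxycycline in entinostat, the values of Ncor1 and Rcor1 were -0.44 ± 0.32 and -0.41 ± 0.28, not called (edgeR adjusted p = 0.314 and 0.273), and 0.08 and 0.03 after the trend was removed.

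The difference of the 2 doxycycline effects in experiment 2 (entinostat minus DMSO), or interaction, was called for 0 of the 10 genes by edgeR, DESeq2 and limma-voom, with 0 of the 10 at an unadjusted edgeR p under 0.05, and for 0.272% of all genes by edgeR, 0.166% higher and 0.106% lower. Without the first Dox_DMSO and NoDox_Entinostat libraries it was called for 7 of the 10, all lower, and for 51.5% of all genes. Those 7 were Ncor1, Sin3a, Rcor1, Hdac8, Mbd3, Mbd2 and Hdac2, with interaction values from -1.49 for Ncor1 to -0.42 for Hdac2. Leaving out NoDox_Entinostat replicate 1 alone gave 4 calls, all lower, where 928 of 15517 genes were called higher and 2133 lower. Leaving out Dox_DMSO replicate 1 alone gave 2, both lower, where 1018 of 15614 genes were called higher and 1619 lower. Balances were 0.58 to 0.69 in the libraries kept in Dox_DMSO and NoDox_Entinostat. They were -0.69 to -0.31 in Dox_Entinostat and -0.12 to 0.32 in NoDox_DMSO. With all libraries, the interaction of Ncor1, Rcor1 and Sin3a was -0.91, -0.73 and -0.90, and -0.20, -0.20 and -0.39 with the trend removed. Hdac8 was -0.64 and then -0.97. None of these was called. The part of the balance in these calls was not tested.

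The same 2 libraries decided calls of the doxycycline comparisons. Without them, 5 of the 10 genes were called in DMSO, against 31.3% of all genes: Mbd2 lower at -0.77, and Ncor1 at 0.77, Rcor1 and Sin3a at 0.55 and Sin3b at 0.31 higher. In entinostat 8 were called, against 61.8%: Sin3b higher at 0.40, and Hdac8, Mbd2, Sin3a, Ncor1, Rcor1, Mbd3 and Hdac2 lower, from -1.38 to -0.39. Sin3a had 144 and 145 CPM in the remaining Dox_DMSO libraries against 86.9 to 112 CPM in NoDox_DMSO, and 27.3 to 30.7 CPM in Dox_Entinostat against 54.6 and 54.9 CPM in the remaining NoDox_Entinostat libraries. With doxycycline, entinostat then gave 7 called lower and Hdac3 called higher, at 0.24, against 77.8% of all genes. The kept Dox_DMSO libraries had balances of 0.64 and 0.69, against -0.12 to 0.32 in NoDox_DMSO. With all libraries and the trend removed, Mbd2 was called in DMSO at -0.76. Ncor1, Rcor1, Sin3a and Sin3b were not, at 0.28, 0.23, 0.16 and 0.42. In entinostat, Sin3a, Mbd3 and Hdac2 were then not called, at -0.23, -0.33 and -0.25. Hdac8, Mbd2 and Sin3b were, at -1.34, -1.09 and 0.75. The part of the balance here was not tested.

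The other subunits of the same complexes, from 6 lists chosen for their membership, gave 43 tested genes in experiment 1 and 42 in experiment 2. With entinostat and no doxycycline 13 of 42 were called lower and 2 higher, where 47.2% of all genes were called, 16.9% lower. With doxycycline 26 were called lower and 3 higher, against 63.7% of all genes, 29.9% lower. Their median log2 fold changes were -0.36 and -0.70, beside 0.07 and 0.14 over all genes tested. The 2 called higher in the absence of doxycycline belong to CoREST. Rcor2, a paralog of Rcor1 that is prominent in neural and stem cells, averaged 5.07 ± 1.13 CPM in NoDox_Entinostat and 0.572 ± 0.0506 CPM in NoDox_DMSO (SD, n = 3 each; log2 fold change 3.14 ± 0.34, edgeR adjusted p = 1.45e-05). Phf21a, which encodes a reader of unmodified histone H3, averaged 21.4 ± 6.55 CPM in NoDox_Entinostat and 5.27 ± 1.17 CPM in NoDox_DMSO (2.03 ± 0.31, edgeR adjusted p = 0.000196). Rcor2 was also higher with doxycycline present, at 6.11 ± 1.63 CPM in Dox_Entinostat and 1.16 ± 0.445 CPM in Dox_DMSO (2.39 ± 0.32, edgeR adjusted p = 5.18e-05).

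Of the 13 called lower without doxycycline, 7 belong to the SIN3 list, which had 16 tested. Ing2, a reader of methylated histone H3 lysine 4, averaged 5.72 ± 0.574 CPM in NoDox_Entinostat and 17.6 ± 0.337 CPM in NoDox_DMSO (log2 fold change -1.62 ± 0.15, edgeR adjusted p = 5.78e-06), and 6.76 ± 0.584 CPM in Dox_Entinostat and 21.2 ± 1.68 CPM in Dox_DMSO (-1.65 ± 0.15, edgeR adjusted p = 3.90e-06). Its paralog Ing1 changed by -0.84 and the dimerisation subunit Suds3 by -0.80 without doxycycline (edgeR adjusted p = 0.000358 and 0.00126), and Suds3 by -0.98 with it (edgeR adjusted p = 0.000234). Rcor3, another Rcor1 paralog, changed by -0.68 without doxycycline (edgeR adjusted p = 0.00201). With doxycycline present the SIN3 list had 10 called lower and 1 higher. Of 9 NuRD subunits, 3 were called lower without and 6 with doxycycline. The CoREST list of 9 had 1 lower without and 4 lower and 2 higher with it, the NCoR and SMRT list of 4 had 1 and 3 lower, the MiDAC list of 2 had 1 and 2 lower, and the 2 chaperones RBBP4 and RBBP7 had 0 and 1 lower. With doxycycline the NuRD subunits Mta2, Mta1 and Cdk2ap1 changed by -1.53, -1.46 and -1.04 (edgeR adjusted p = 0.000151, 0.000158 and 0.00019).

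With doxycycline, fewer of the other subunits were called. In experiment 1, 1 of 43 was called lower and 1 higher, against 13.6% of all genes: Sap18, a SIN3-associated protein, at -0.65 ± 0.09 and Mta3, a NuRD subunit, at 0.49 ± 0.09 (edgeR adjusted p = 0.00585 and 0.0193). Mta3 lost its call without Exp1_NoDox replicate 3, Exp1_Dox replicate 2 or Exp1_Dox replicate 3, with edgeR adjusted p from 0.0366 to 0.102 over the 6 libraries left out. The value of Sap18 is uncertain, since its copy Sap18b shares 731 of its runs of 50 bases. With the block, 21 were called, 11 higher and 10 lower, where 50.9% of all genes were called. In DMSO 0 of 42 were called by edgeR, against 9.31% of all genes, with 4 at an unadjusted p under 0.05. DESeq2 called 2, the fit with the block 3 and that with the trend removed 4, all higher. Of all 15051 genes, these fits called 870, 887 and 997 higher and 1070, 1146 and 1190 lower. Without the 2 libraries that stand apart, 18 of the 42 were called higher and 3 lower. In that fit 31.3% of all genes were called, 2697 higher and 2149 lower. In entinostat 4 were called lower and 1 higher, against 24.0% of all genes: the demethylases Kdm1a at -0.69 and Kdm5a at -0.76, the MiDAC subunit Dnttip1 at -0.59, the SIN3 subunit Sap30 at -0.55, and Ogt, the O-GlcNAc transferase, at 0.45 (edgeR adjusted p = 0.0318, 0.0325, 0.0377, 0.0499 and 0.0446). This count ran from 0 to 19 with 1 library left out. It was 0 without replicate 2 or 3 of NoDox_Entinostat or of Dox_Entinostat, where 228 to 427 of all genes were called higher and 766 to 1094 lower. It was 18 lower and 1 higher without NoDox_Entinostat replicate 1, where 3152 of 15517 genes were called higher and 4431 lower. None of the 5 kept its call in every fit with 1 library left out: Kdm1a and Kdm5a lost it in 4 of the 12, Dnttip1 in 8, and Sap30 and Ogt in 10.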

How the data were processed

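RNA abundance was measured in 18 libraries of polyadenylated RNA. The kit does not keep the strand, per the labels' protocols, so reads of Sin3a and of its opposite-strand neighbour Man2c1os (205 of 5385 exon bases) mix, as do those of Ncor1 and Pigl (82 of 12811). The deposited values are raw counts per gene in a separate table for each experiment. The submitters' processing notes name bcl2fastq 2.17.1.14, mm10, STAR and DESeq2; the counter and annotation were not given in the sources used here. The experiment 1 table holds no value under 1. Intervals from counting were not needed, since each test uses the variation among replicates.

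For each experiment, edgeR 4.0.16 (R 4.3.3; quasi-likelihood, TMM factors, filterByExpr), tested on simulated data, gave two-sided p-values with Benjamini-Hochberg adjustment across the genes that passed the filter. The simulated counts were independent between libraries, with a fixed dispersion and no length trend. That check therefore does not cover libraries that stand apart or correlated replicates. The threshold was 0.05. Homolog ratios were log2 ratios of counts with nothing added, and adding 0.5 was an alternative. Lengths, GC content and positions came from GENCODE M21. The genes and lists were chosen with earlier results of these data known. The 10 genes and Spi1 are named in every comparison where they bear on it. Of the other subunits, all called ones are named, or the 6 with the smallest adjusted p where more were called.

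Same-numbered libraries of experiment 1 correlated at 0.537 to 0.964, all 3 over the limit of 0.1 for pairing, though differently numbered ones reached 0.625. In experiment 2, 16 of 18 pairs passed, the lowest at 0.0241, so the numbers were not taken to pair its samples. Alternatives were RLE factors, library size, other filters, DESeq2 1.42.0, voom in limma 3.58.1, the block, each library left out, 2 groups alone, a 2-fold limit and both libraries that stand apart left out. Removing the length and GC trend (splines with 4 degrees of freedom) and adding Gm10093 to Hdac1 were chosen after seeing the data. The 2 libraries that stand apart were likewise known from the counts themselves and not from a label. No 2 libraries were identical.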

Additional observations from a re-analysis of the deposited data

How the results depend on the processing

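Counts here are of the 10 genes called, and other values are on the log2 scale. With doxycycline in experiment 1 the count was 2, but 0 with a 2-fold limit and 1 without a filter on low counts. It was 1 with the length and GC trend removed, 4 with the replicate block, 5 with both, and 1 to 2 with 1 library left out. All-gene calls were 275 higher and 542 lower with the 2-fold limit, and 514 and 990, of 22085, without the filter. They were 1111 and 1388 with the trend removed, and 4187 and 3474 with both, of 13811. In DMSO the count was 1, but 0 with the 2-fold limit, 2 by DESeq2 and 5 in the absence of the 2 libraries that stand apart. All-gene calls there were 381 higher and 593 lower with the limit, 870 and 1070 by DESeq2, and 31.3% in that absence. In entinostat the count was 2, but 8 in the absence of those libraries, against 61.8% of all genes, and 1 to 7 with 1 library left out. Entinostat without doxycycline gave 3, but 1 lower and 1 higher with library size, and 2 without a filter. It gave 6 with the trend removed and the block, and 2 to 3 with 1 library left out. All-gene calls were 5417 higher and 1233 lower with library size and 5179 and 2261, of 26903, without a filter. They were 5708 and 3381 with trend and block, of 15051, and 6009 to 8193 with 1 library left out. With doxycycline entinostat gave 7, all lower, but 4 with the 2-fold limit and 6 with the 2 groups alone. These settings called 4321 and 4719 of all genes higher and 2290 and 3500 lower. Other settings kept 7 lower and called others higher. These were 1 by DESeq2, with library size, with the 1 CPM filter and in the absence of both libraries. They were 2 with the trend removed and 3 with the trend removed and the block. In these settings 3861 to 6676 of all genes were called higher and 3712 to 5367 lower. The interaction gave 0, but 7 in the absence of both libraries and 0 to 4 with 1 left out. Over all genes it was called for 41, but 122 higher and 113 lower by DESeq2 and 177 with the block. The all-gene count was 7972 in the absence of both libraries and 9 to 3061 with 1 left out. In experiment 1 all-gene calls were 1881, but 7027 with the block. With 1 library left out, all-gene calls with doxycycline were 684 to 1508 in experiment 1, 862 to 1741 in DMSO (1401 with all libraries) and 994 to 7583 in entinostat (3614 with all), lowest without NoDox_Entinostat replicate 3 and highest without NoDox_Entinostat replicate 1. The block changed no member count in experiment 2. With doxycycline, the ratio of Hdac1 over Hdac2 was -0.13 in DMSO alone and -0.022 to 0.091 with 1 library left out, and Sin3a over Sin3b was -0.46 with the block (exact permutation, adjusted p = 0.0375), of whose 9 pairs 6 are in experiment 2, where the numbers were not taken to pair samples, and -0.89 in entinostat alone. Among doxycycline groups, entinostat gave 0.89 for Hdac1 over Hdac2 and -1.75 for Sin3a over Sin3b. Genes not called with all libraries changed sign as follows. With doxycycline in DMSO, Hdac2 was 0.028 in the absence of both libraries, 0.00011 with the trend removed and -0.11 to 0.029 with 1 library left out. Mbd3 there was -0.013 with library size, -0.014 by limma-voom, -0.0054 in the 2 groups alone, -0.0018 without a filter, -0.0014 with the block, -0.14 and -0.15 with the trend removed, without and with the block, and -0.087 to 0.17 with 1 library left out. In entinostat, with the trend removed without and with the block, Ncor1 was 0.077 and 0.085, and Rcor1 0.027 and 0.037. Hdac3 was -0.13 with library size, -0.087 without a filter and -0.0052 to 0.042 with 1 library left out, and Hdac1 -0.14 to 0.0030. With entinostat and no doxycycline, Ncor1 was 0.045 with library size, 0.064 in the absence of both libraries and -0.39 to 0.065 with 1 left out. With library size, then the trend removed without and with the block, Mbd2 was 0.020, 0.018 and 0.018, and Sin3b 0.088, 0.16 and 0.095. With doxycycline, Sin3b was 0.49 with the trend removed and 0.53, then called, with the block as well. In the interaction, library size gave -0.019 for Hdac3 and -0.00085 for Hdac1, and Sin3b was 0.089 in the absence of both libraries, 0.33 and 0.44 with the trend removed and -0.094 to 0.031 with 1 library left out. In experiment 1, leaving out 1 library gave -0.054 to 0.00017 for Hdac1, -0.099 to 0.065 for Hdac3, -0.022 to 0.11 for Mbd3, -0.79 to 0.77 for Ncor1, -0.17 to 0.25 for Rcor1 and -0.16 to 0.36 for Sin3a. The causes were not tested. Apart from the 2-fold limit, Mbd2 with doxycycline and Mbd3 with entinostat were called in every alternative fit run.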

Other observations

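Sap18 and its copy Sap18b, which shares 731 runs of 50 bases with it, split their counts differently in the 2 experiments, as Hdac1 and Gm10093 did. Sap18 had 14.9 to 17.1 CPM in Exp1_Dox and 24.5 to 25.7 CPM in Exp1_NoDox, while Sap18b had 69.6 to 82.7 CPM in Exp1_Dox and 62.7 to 78.8 CPM in Exp1_NoDox. In experiment 2, Sap18 had 80.7 to 105 CPM in Dox_DMSO and 92.8 to 97.6 CPM in NoDox_DMSO, while Sap18b had 1.79 to 1.99 CPM in Dox_DMSO and 1.53 to 1.85 CPM in NoDox_DMSO. The fall of Sap18 in experiment 1 is therefore uncertain.

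Over the 12 libraries of experiment 2, likeness was measured as the root mean square difference of centred log2 CPM, as a description only. Among the 10 genes the nearest pair was Hdac1 and Hdac3, at 0.0839, which both varied little (0.12 and 0.102 around their own means). Rcor1 and Ncor1 followed at 0.0951 while varying by 0.505 and 0.551, though each had nearer genes: Btaf1 at 0.0658 and Zfp507 at 0.0658 for Rcor1, and Dennd4c at 0.0637 and Znfx1 at 0.0696 for Ncor1. Nearest to Mbd2 were Lgals9 at 0.111 and Ostm1 at 0.116, and nearest to Mbd3 were E130309D02Rik at 0.0657 and Eef1aknmt at 0.0788. For Sin3a they were Nop14 at 0.0918 and Pom121 at 0.097, for Hdac2 Aar2 at 0.047 and Tbx15 at 0.0559, and for Hdac8 Ptpn9 at 0.0728 and Hsp90b1 at 0.0956.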
